A study of Mus musculus with 6 samples.

Results

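The glucocorticoid receptor (GR) and the chaperone machinery that assembles around it were followed in Tregs sorted from B16.F10 mouse melanoma tumors at day 15 after tumor inoculation. The 10 genes were named by symbol for their known roles, and no threshold on a measured value chose them: *Nr3c1*, which encodes GR, the cytosolic chaperones *Hsp90aa1*, *Hsp90ab1* and *Hspa8*, the co-chaperones *Dnajb1*, *Stip1*, *Ptges3* and *Bag1*, and the immunophilins *Fkbp4* and *Fkbp5*. All 10 had a value among the 12153 genes of the deposited table. Bulk RNA-Seq was available for 6 libraries, 3 from control Tregs of mice with floxed *Nr3c1* (the labels write Nr3c1-flox) and 3 from Nr3c1-Foxp3Cre Tregs of mice that carry floxed *Nr3c1* together with a *Foxp3*-driven YFP/Cre allele. Both groups therefore share the floxed *Nr3c1* alleles, and Cre is driven by *Foxp3*, the transcription factor that defines Tregs. The sample labels describe a sort by CD45, CD4 and CD25 and the study's methods a sort by Foxp3-YFP. The control labels name no YFP/Cre allele, so the gate used for control libraries is not known, and a difference in gate and a difference in genotype cannot be told apart. Whether each library is 1 mouse or a pool, the age of the mice and the floxed exon are not given in the sources used here, so p-values measure the spread between libraries, which may be technical. The values are log2 CPM (CPM being read counts scaled to a common library total) after quantile normalization by the authors, and the read depth behind them is unknown.

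GR is a ligand-activated transcription factor that cannot bind its hormone well until chaperones have worked on it. An Hsp70 with its Hsp40 partner first binds the newly made receptor, the adaptor Hop (*Stip1*) passes it on to Hsp90, and p23 (*Ptges3*) stabilizes the mature complex that binds glucocorticoid. The immunophilins FKBP51 (*Fkbp5*) and FKBP52 (*Fkbp4*) compete for the same place on Hsp90, the former lowering and the latter raising hormone binding and transport to the nucleus, and *Fkbp5* is itself a classic GR target gene. In T cells, including Tregs, GR is the route by which glucocorticoids act on transcription.

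Several of these genes have near-identical copies elsewhere in the genome, which bears on how reads were assigned to them. The following stretches of 60 bases, taken from GENCODE M21 transcripts on mm10 and written 5′ to 3′ on the transcript strand, show how close the copies are. The first 3 compare *Hsp90aa1* (chr12:110695565-110695624, minus strand) with its processed pseudogene *Gm12346* (chr11:77293552-77293611, plus strand) and with the second cytosolic Hsp90 gene, *Hsp90ab1* (chr17:45571811-45571870, minus strand). Capitals mark bases that differ from *Hsp90aa1*.
Hsp90aa1: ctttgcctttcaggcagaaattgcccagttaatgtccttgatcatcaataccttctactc
Gm12346: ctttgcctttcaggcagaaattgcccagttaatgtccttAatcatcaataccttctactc
Hsp90ab1: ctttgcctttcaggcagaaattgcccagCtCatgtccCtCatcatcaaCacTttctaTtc

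The pseudogene differed from its parent at 1 of 60 bases and *Hsp90ab1* at 7. Over the longest coding transcript, 58.5% of the 50-base words of *Hsp90aa1* occurred in another annotated gene, mostly in *Gm12346* (51.5%), whereas *Hsp90aa1* and *Hsp90ab1* shared 0 such words. Reads of the 2 Hsp90 genes can therefore be told apart over 50 bases, and those of *Hsp90aa1* and its pseudogene often cannot.

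*Hspa8* had the largest shared part of the 10 genes. Its stretch (chr9:40801997-40802056, plus strand) is set beside the pseudogene *Gm15459* (chr5:5783422-5783481, minus strand), with the differing base in capitals.
Hspa8: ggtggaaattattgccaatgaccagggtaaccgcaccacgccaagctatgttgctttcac
Gm15459: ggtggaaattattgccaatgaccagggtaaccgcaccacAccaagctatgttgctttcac

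In all, 73.2% of the 50-base words of *Hspa8* occurred in another gene, against 22.2% for *Ptges3*, 5.59% for *Stip1*, 4.49% for *Hsp90ab1*, 0.407% for *Dnajb1*, 0.0783% for *Nr3c1* and 0 for *Bag1*, *Fkbp4* and *Fkbp5*. The levels of *Hspa8*, *Hsp90aa1* and *Ptges3* are thus uncertain to the extent that the authors' counting could split reads between copies. The table gave little to those copies that it lists. *Gm12346* held 0.206% to 0.326% of the linear CPM summed over *Hsp90aa1* and the pseudogene. Of the *Hspa8* sum, *Gm15459* held 0.0628% to 0.105% and a second pseudogene, *Gm8355*, 0.0226% to 0.0288%. *Ptges3-ps* held 1.34% to 2.49% of the *Ptges3* sum. Adding these copies, a step chosen after seeing the data, left the log2 differences between the groups at -0.16 for *Hsp90aa1*, 0.083 for *Hspa8* and -0.17 for *Ptges3*. With such small shares the sums could hardly move, so this step cannot show whether reads were assigned to the right copy. Other copies had no value, such as *Gm5844* (36.8% of *Hsp90aa1* words) and *Gm6210* (35.1% of *Hspa8* words).

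The receptor transcript was lower in Nr3c1-Foxp3Cre Tregs in every library, and none of its 9 partners separated the groups. *Nr3c1* (ENSMUSG00000024431.15, chromosome 18 of mm10, 39410545 to 39519421, minus strand) was at 7.15, 7.59 and 6.88 log2 CPM in the 3 control libraries and at 6.14, 5.45 and 5.90 in the 3 Nr3c1-Foxp3Cre libraries. The highest Nr3c1-Foxp3Cre value thus lay below the lowest control value. The level in Nr3c1-Foxp3Cre Tregs was 38.4% of that in control Tregs, with a 95% interval from 27.6% to 53.4%, and the log2 difference of -1.38 (SE 0.21) had an unadjusted p = 9.15e-05 and an adjusted p = 0.120 in limma over all genes. It therefore did not pass the threshold of 0.05 on the adjusted p. An exact two-sided permutation test gave p = 0.1, the smallest that 3 libraries against 3 allow. Of all genes, 1.09% had a larger difference in either direction. In rank of log2 CPM, which is not corrected for length, *Nr3c1* stood at 1056 to 1997 of 12153 genes in control libraries and at 3398 to 4928 in Nr3c1-Foxp3Cre libraries. In bulk samples, fewer cells that hold a transcript and less of it per cell cannot be told apart, and the gene-level values do not separate exons.

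Markers of other cells were present, and none of them passed the adjusted threshold between groups. The 9 Treg markers were all measured, and their summed level spanned 12.29 to 12.73 log2 CPM in control and 12.30 to 12.46 in Nr3c1-Foxp3Cre libraries. The highest of them, *Tnfrsf4* and *Tnfrsf18*, had log2 differences of -0.12 and -0.0011. Of the 9 Treg markers 3 were higher and 6 lower in mean, and the groups overlapped for each. Their differences ran from -0.40 (SE 0.21) for *Ctla4* to 0.28 (SE 0.21) for *Ikzf2*. *Foxp3* itself was low, at 3.39 to 4.42 against 3.50 to 4.47 log2 CPM. Of the fibroblast and endothelial markers 5 of 6 were measured, and their sum was 7.65 to 8.68 in control against 6.93 to 7.64 in Nr3c1-Foxp3Cre libraries, with no overlap. Its members did not share a direction, with 4 lower and 1 higher in mean. The fibrillar collagens *Col1a1* and *Col3a1* had log2 differences of -1.87 (SE 0.29, limma unadjusted p = 1.17e-04, adjusted p = 0.120) and -1.41 (SE 0.40, limma unadjusted p = 0.0063, adjusted p = 1.0). All Nr3c1-Foxp3Cre values of *Col1a1* lay below those of control, as for *Nr3c1*, while the groups overlapped for *Col3a1*. *Pecam1*, an endothelial adhesion molecule also found on some leukocytes, had 0.28 (SE 0.12, limma unadjusted p = 0.0436, adjusted p = 1.0), with all Nr3c1-Foxp3Cre values above those of control. Of the 5 measured, 2 were thus lower and 1 higher at an unadjusted limma p under 0.05, against 3.26% of all genes. The 9 macrophage and monocyte markers were all measured, all lower in mean in Nr3c1-Foxp3Cre Tregs, and overlapped between groups (sums of 8.53 to 9.12 against 8.08 to 9.08), with log2 differences of -0.20 for *Lyz2* and -0.67 for *C1qb*, the highest of them. The part of these cells in the *Nr3c1* difference was not tested. The 7 melanoma markers, also all measured, made up 0.341% to 0.954% of the linear CPM of a library, with overlapping groups and log2 differences of 0.15 for *Dct* and -0.079 for *Tyrp1*, the highest of them. Of 4 B cell markers only *Cd79b* was in the table, and of 4 CD8 T and NK cell markers only *Cd8b1*. None of the 12 tissue dissociation genes passed the adjusted threshold, and their sums were 11.92 to 12.36 against 12.18 to 12.28, with log2 differences of 0.22 for *Junb* and 0.037 for *Fos*, the highest of them.

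**Figure D1:**
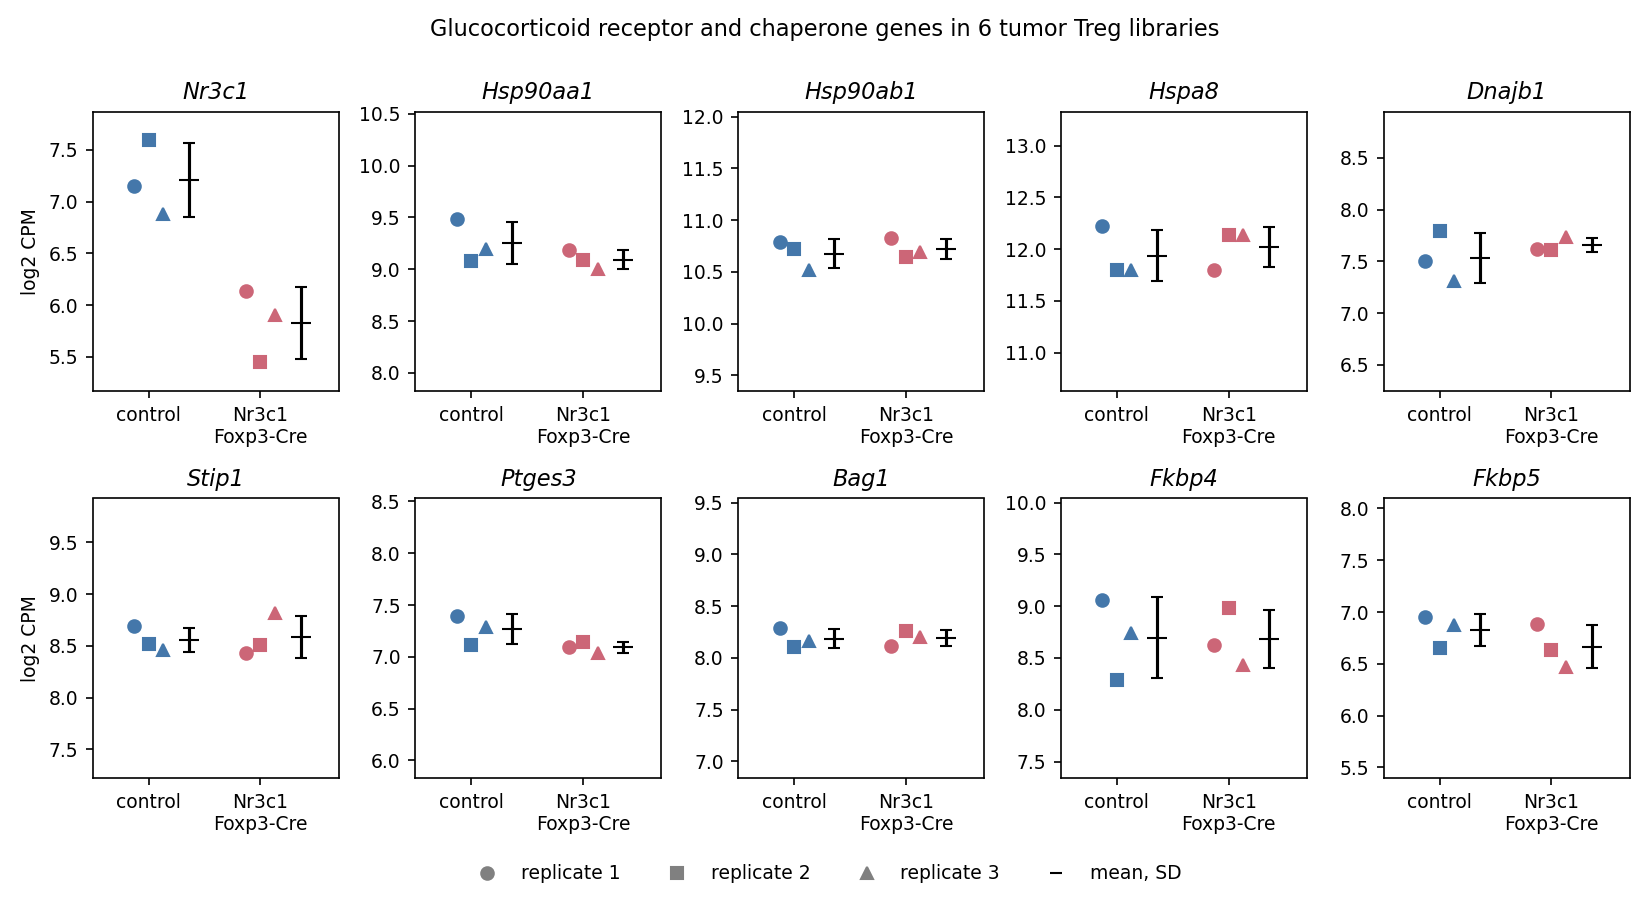
Level of the 10 genes in each of the 6 libraries (y axis, log2 CPM after quantile normalization; points are libraries, coloured by group, and short lines are group means, n = 3 each). The points of *Nr3c1* separate by group, at 6.88 to 7.59 in control and 5.45 to 6.14 in Nr3c1-Foxp3Cre Tregs, while the points of each of the other 9 genes overlap.

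Across the 10 genes, 0 had a limma adjusted p under 0.05, as against 7 of all genes (0.0576%), 1 higher (0.00823%) and 6 lower (0.0494%) in Nr3c1-Foxp3Cre Tregs. At an unadjusted p under 0.05 there was 1 of 10, *Nr3c1*, against 396 of all genes (3.26%), and the groups did not overlap for the same gene, against 901 of all genes (7.41%). Among those 901 genes, Nr3c1-Foxp3Cre libraries lay below for 453 (3.73%), as for *Nr3c1*, and above for 448 (3.69%). Among the 9 partners, 5 were higher and 4 lower in mean in Nr3c1-Foxp3Cre Tregs, with log2 differences from -0.17 to 0.12 and a median of 0.0084. The median over all genes was -0.0014. The 95% intervals of the 9 partners lay within -0.47 to 0.46 on the log2 scale, that is, within 72.3% to 137% of the control level. Each interval was made for its own gene and not for the 9 together, and it rests on the spread between libraries. For 8 of the 9 the difference was smaller than the larger SD of its 2 groups. The median size of their differences, 0.083, was above the 0.0609 found among the 2203 genes of the same range of level and below the 0.108 found among all genes.

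**Figure D2:**
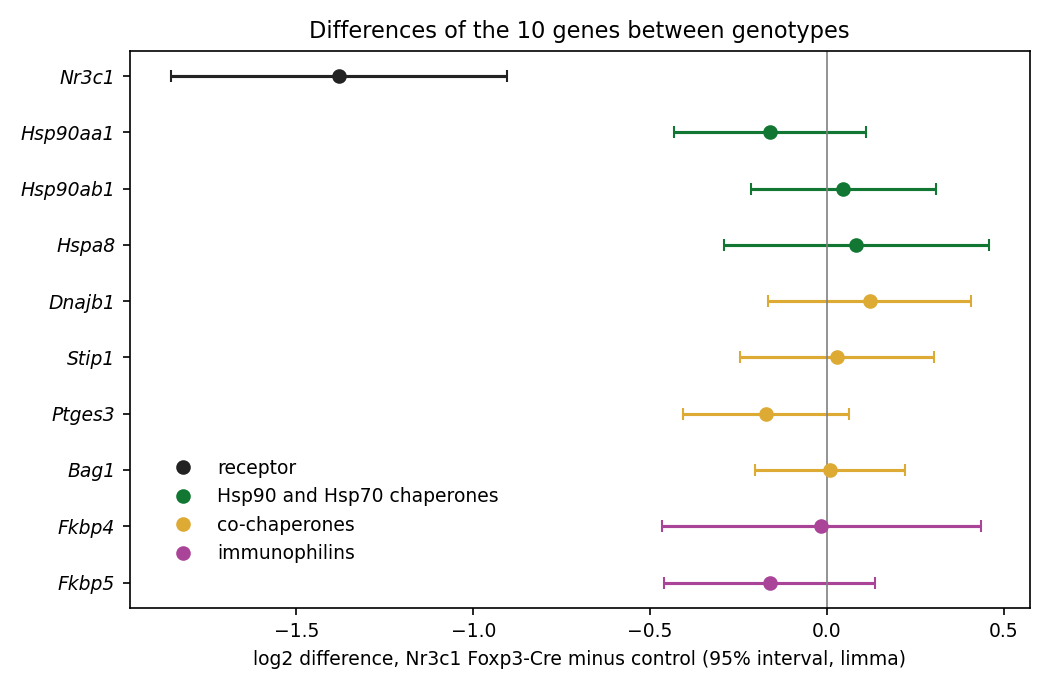
Difference of the 10 genes between Nr3c1-Foxp3Cre and control Tregs (x axis, log2, with limma's 95% interval, n = 3 libraries each). The interval of *Nr3c1* lies from -1.86 to -0.91, and those of the other 9 genes include 0.

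The 3 chaperones that bind the receptor lay high in the table by log2 CPM in every library. *Hspa8* (ENSMUSG00000015656.17, chromosome 9, 40800984 to 40810087, plus strand) encodes Hsc70, the constitutive Hsp70. It was at 12.22, 11.79 and 11.79 log2 CPM in control and 11.79, 12.13 and 12.13 in Nr3c1-Foxp3Cre libraries, and it ranked between 5 and 11 of all genes. Equal values come from equal ranks, because quantile normalization gives each library the same set of values. The groups overlapped, with the highest value in control 1 and the lowest shared by 3 libraries of both groups. The log2 difference was 0.083 (SE 0.17, exact two-sided permutation p = 1.0), or 106% of control (95% interval 81.7% to 137%).

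*Hsp90ab1* (ENSMUSG00000023944.14, chromosome 17, 45567775 to 45573271, minus strand), the constitutive Hsp90, was at 10.79, 10.72 and 10.52 log2 CPM in control and 10.83, 10.65 and 10.69 in Nr3c1-Foxp3Cre libraries. Its level was the most even of the 3 chaperone genes, at ranks 32 to 45, and the groups interleaved. The Nr3c1-Foxp3Cre level was 103% of control (95% interval 86.1% to 124%). *Hsp90aa1* (ENSMUSG00000021270.13, chromosome 12, 110690605 to 110702728, minus strand), the stress-inducible Hsp90, was at 9.48, 9.08 and 9.20 in control and 9.18, 9.09 and 9.003 in Nr3c1-Foxp3Cre libraries. Control 1 stood above the rest, while the other 5 libraries lay close together with the groups mixed. Its log2 difference was -0.16 (SE 0.12, exact two-sided permutation p = 0.3), or 89.4% of control (95% interval 74.1% to 108%).

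The balance of the 2 Hsp90 genes, taken as log2 *Hsp90ab1* minus log2 *Hsp90aa1* within each library, was 1.42 ± 0.19 (SD, n = 3) in control and 1.63 ± 0.067 (SD, n = 3) in Nr3c1-Foxp3Cre Tregs. This difference of 0.21 was not separated from the spread (exact two-sided permutation p = 0.2), and the values overlapped. The summed linear level of *Hsp90aa1*, *Hsp90ab1* and *Hspa8* was 7265, 5777 and 5611 CPM in control and 5954, 6643 and 6656 CPM in Nr3c1-Foxp3Cre libraries. Both the highest and the lowest sums belonged to control libraries. On the log2 scale the sum differed by 0.054 (12.59 ± 0.20 against 12.65 ± 0.092, SD, n = 3 each, exact two-sided permutation p = 0.8).

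The co-chaperones that load the receptor and release it overlapped between groups as well. *Dnajb1* (ENSMUSG00000005483.10, chromosome 8, 83608193 to 83612653, plus strand), an Hsp40 that stimulates the Hsp70 ATPase, was at 7.51, 7.79 and 7.31 log2 CPM in control and 7.62, 7.61 and 7.74 in Nr3c1-Foxp3Cre libraries. Control libraries held both extremes, and the mean was 109% of control (95% interval 89.2% to 133%). *Stip1* (ENSMUSG00000024966.9, chromosome 19, 7020702 to 7039967, minus strand), the Hsp70 to Hsp90 adaptor, was at 8.69, 8.52 and 8.46 in control and 8.43, 8.51 and 8.82 in Nr3c1-Foxp3Cre libraries. Here Nr3c1-Foxp3Cre libraries held both extremes, and the mean was 102% of control (95% interval 84.4% to 123%). *Bag1* (ENSMUSG00000028416.12, chromosome 4, 40936398 to 40948294, minus strand), a nucleotide exchange factor that lets Hsp70 release its client, was at 8.28, 8.11 and 8.16 in control and 8.11, 8.26 and 8.20 in Nr3c1-Foxp3Cre libraries. It had the narrowest error of the 10 genes (log2 difference 0.0084, SE 0.094), with an interval from 86.8% to 116% of control.

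*Ptges3* (ENSMUSG00000071072.12, chromosome 10, 128058954 to 128077272, plus strand), whose product p23 holds Hsp90 in its closed, client-bound form, had the largest difference among the partners and the smallest p. Its levels were 7.39, 7.11 and 7.29 log2 CPM in control and 7.10, 7.14 and 7.04 in Nr3c1-Foxp3Cre libraries. The control 2 value fell among those of Nr3c1-Foxp3Cre Tregs, so that the groups overlapped through that library. The log2 difference was -0.17 (SE 0.10, limma p = 0.130, adjusted p = 1.0), or 88.8% of control (95% interval 75.5% to 104%), with p = 0.2 in an exact two-sided permutation test. Without control 2 the difference was -0.25, which passed 0.05 in limma before adjustment and not after (adjusted p = 0.832). Leaving out the lowest control library was bound to widen it. Without any other single library it lay between -0.20 and -0.11, with an unadjusted limma p from 0.144 to 0.362. The share of all genes with an unadjusted p under 0.05 in these fits was not computed.

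The 2 immunophilins that compete on Hsp90 did not move with genotype beyond their spread. *Fkbp5* (ENSMUSG00000024222.17, chromosome 17, 28399094 to 28517527, minus strand) was at 6.95, 6.66 and 6.87 log2 CPM in control and 6.89, 6.64 and 6.47 in Nr3c1-Foxp3Cre libraries. The lowest value belonged to Nr3c1-Foxp3Cre 3, and the other 5 were mixed. The log2 difference of -0.16 (SE 0.13, exact two-sided permutation p = 0.3), or 89.4% of control (95% interval 72.7% to 110%), was smaller than the SD of Nr3c1-Foxp3Cre libraries. The study, which used limma-voom, reports *Fkbp5* as reduced in Nr3c1-Foxp3Cre Tregs and counts it among its positive controls. The mean had the same direction here, within the spread. *Fkbp4* (ENSMUSG00000030357.10, chromosome 6, 128429735 to 128438677, minus strand) was at 9.06, 8.28 and 8.74 in control and 8.63, 8.99 and 8.43 in Nr3c1-Foxp3Cre libraries. It had the widest spread of the partners within a group, and the log2 difference of -0.016 (SE 0.20, exact two-sided permutation p = 1.0) left an interval from 72.3% to 135% of control. Log2 *Fkbp5* minus log2 *Fkbp4* was -1.87 ± 0.24 (SD, n = 3) in control and -2.02 ± 0.31 (SD, n = 3) in Nr3c1-Foxp3Cre Tregs (exact two-sided permutation p = 0.6).

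The level of *Fkbp4* was set beside the melanoma content of the libraries after the spread of *Fkbp4* had been seen, and neither measure of their relation was under 0.05 after adjustment. The 7 melanoma markers summed to 13.16, 11.74 and 12.74 log2 CPM in control and 12.60, 13.22 and 11.89 in Nr3c1-Foxp3Cre libraries. *Fkbp4* was highest in the 2 libraries richest in these markers, control 1 and Nr3c1-Foxp3Cre 2, and lowest in the 2 poorest, control 2 and Nr3c1-Foxp3Cre 3. Over the 6 libraries Pearson's r was 0.978 (exact permutation p = 0.00556, 0.05 after Benjamini-Hochberg adjustment over 9 genes) and Spearman's rho was 0.943 (exact permutation p = 0.0167, adjusted 0.15). Without control 2 and Nr3c1-Foxp3Cre 3, the libraries farthest from the median of the markers, r was 0.970 for *Fkbp4*, and over these 4 libraries it was also high for *Bag1* (0.980) and *Hspa8* (0.951), whose r over all 6 was 0.656 and 0.402. A higher r was found for 80 of all genes (0.658%). The part of melanoma RNA in the level of *Fkbp4* was not tested. For the other 8 partners the adjusted exact permutation p of Pearson's r lay between 0.313 and 0.947, and *Nr3c1* was not included because its libraries fall into 2 clusters by group. When the marker level was added to the fit, also after the data had been seen, the *Fkbp4* log2 difference was -0.027 with its SE reduced from 0.20 to 0.089, and its interval narrowed to -0.22 to 0.17. Since *Fkbp4* followed the marker level in these same 6 libraries, its smaller SE in that fit restates their relation. In that fit *Nr3c1* had a log2 difference of -1.37 (SE 0.16) and a limma adjusted p = 0.00423. Of the 10 genes it was the one that passed there. Among all 12153 genes that fit had 4 higher and 15 lower past the threshold, against 1 and 6 without the marker level.

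**Figure D3:**
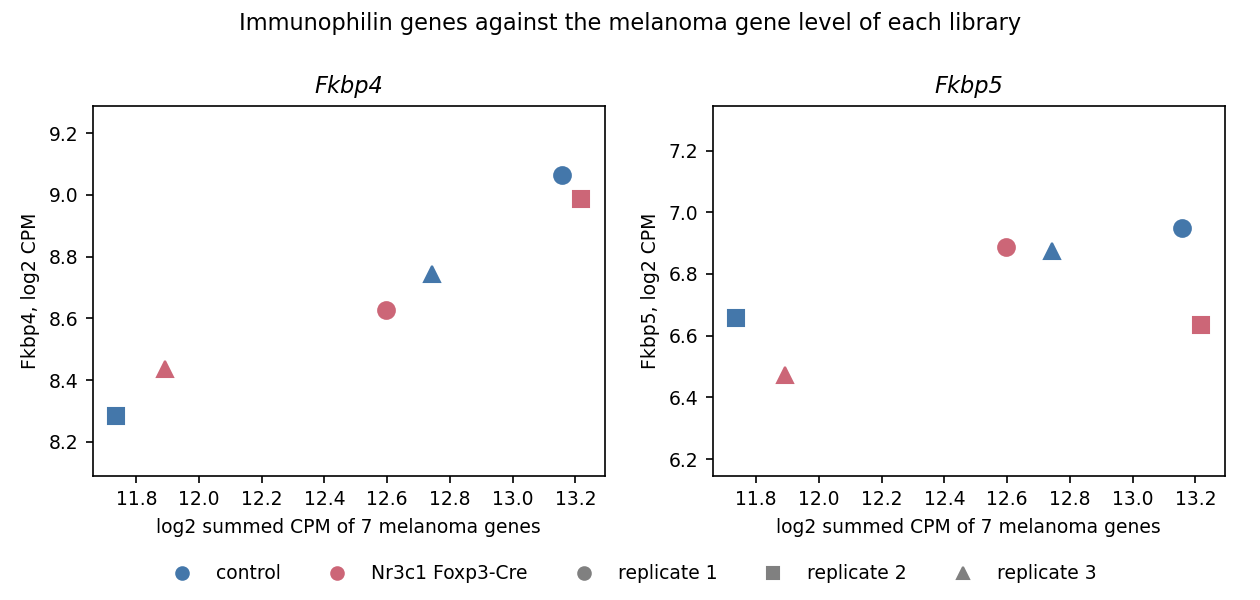
Levels of the immunophilin genes *Fkbp4* and *Fkbp5* (y axes, log2 CPM) against the summed level of 7 melanoma markers (x axis, log2 CPM) in the 6 libraries, coloured by group. *Fkbp4* rises along the x axis with r = 0.978 over libraries of both groups, and control and Nr3c1-Foxp3Cre libraries are mixed along it.

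Levels were set in order per kilobase of the union of exons in GENCODE M21, a scale that allows genes of different length to be compared but depends on the length used. As control means (geometric), *Hspa8* stood at 912 CPM per kb and *Hsp90ab1* at 545, apart from each other and from the rest in every library. *Bag1* (216), *Stip1* (179), *Hsp90aa1* (155) and *Fkbp4* (149) came next, and the ranges over libraries of *Bag1* and *Stip1* overlapped, as did those of *Stip1*, *Hsp90aa1* and *Fkbp4*. *Ptges3* (69.3) and *Dnajb1* (58.0) overlapped with each other and lay below these. *Nr3c1* and *Fkbp5* were the lowest, at 19.3 and 11.99 CPM per kb in control Tregs, and *Nr3c1* was at 7.40 in Nr3c1-Foxp3Cre Tregs. In control Tregs *Nr3c1* was thus above *Fkbp5* on this scale, and with the length of the longest coding transcript the order of those 2 turned, with *Fkbp5* at 29.4 and *Nr3c1* at 23.0. The same length also exchanged *Fkbp4* (187) and *Stip1* (179), placing them 4th and 6th around *Hsp90aa1* (186).

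Set against its partners within each library, log2 *Nr3c1* minus the mean log2 level of the other 9 genes was -1.78, -1.08 and -1.82 in control and -2.60, -3.33 and -2.82 in Nr3c1-Foxp3Cre libraries. Every Nr3c1-Foxp3Cre value lay below every control value (exact two-sided permutation p = 0.1, the smallest possible). The mean of the 9 partners alone was 8.77 ± 0.14 (SD, n = 3) in control and 8.75 ± 0.030 (SD, n = 3) in Nr3c1-Foxp3Cre Tregs. That difference of -0.025 had an exact two-sided permutation p = 1.0. Control 1 was the highest control library for 8 of the 10 genes and the highest of all 6 libraries for 6 of them, *Nr3c1* and *Dnajb1* being the 2 for which control 2 was the highest.

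Profiles over the libraries were compared between genes. By the root mean square difference of log2 values over 6 libraries, after each gene was centred on its own mean, the nearest to *Nr3c1* were *Tsc22d3* (0.188), which encodes the glucocorticoid-induced leucine zipper GILZ, *Tmem254b* (0.226), *Slc43a1* (0.236), *Trav14-1* (0.274) and *Il7r* (0.276), the IL-7 receptor. *Slc43a1* and *Trav14-1* were among the low genes of the table, below 3 log2 CPM in each library. The nearest to *Hsp90aa1* were *Mov10* (0.0295), *Ankrd49* (0.0305), *AI506816* (0.0319), *Eif2a* (0.0420) and *Arsa* (0.0469). The nearest of its own complex was *Ptges3* (0.0684), which came 28th. These distances describe the 6 libraries and carry no test.

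The wider pathway was taken from lists of genes with known roles in chaperoning, transport and receptor action. Of 93 listed genes outside the 10, 85 were measured, 0 had a limma adjusted p under 0.05, and 2 (2.35%, against 3.26% of all genes) had an unadjusted p under 0.05, both higher in mean in Nr3c1-Foxp3Cre Tregs. The groups did not overlap for 1 gene (1.18%, against 7.41%), and the median log2 difference was 0.0053. The 2 genes were coregulators of nuclear receptors. *Smarca2*, an ATPase of SWI/SNF chromatin remodelling complexes, was at 5.23, 5.63 and 5.38 log2 CPM in control and 6.07, 5.58 and 5.81 in Nr3c1-Foxp3Cre libraries (log2 difference 0.41, SE 0.16, limma adjusted p = 1.0). *Nrip1*, a corepressor that binds liganded nuclear receptors, was at 5.42, 6.27 and 5.71 against 6.38, 6.17 and 6.26 (log2 difference 0.47, SE 0.19, limma adjusted p = 1.0). In each of these genes control 2 lay among the Nr3c1-Foxp3Cre values. *Ep300*, a histone acetyltransferase, came next by p among the 16 coregulators, with a log2 difference of 0.36 (SE 0.20), and the median of the list was 0.030.

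Other Hsp90 co-chaperones, of which 18 of 19 were measured, had a median log2 difference of -0.039. *Dnajc7*, a tetratricopeptide protein that binds both Hsp70 and Hsp90, was the one gene whose groups did not overlap, at 7.45 to 7.52 in control and 7.53 to 7.71 in Nr3c1-Foxp3Cre libraries, with a small difference of 0.10 (SE 0.093). *Chordc1* and *Sugt1* followed it by p, at -0.10 each. In the remaining Hsp70 system 21 of 22 genes were measured with a median of 0.0055. *Bag3*, a stress-induced exchange factor, had -0.28 (SE 0.21), *Dnajb4* -0.32 (SE 0.24) and *Dnajc3*, an Hsp40 of the endoplasmic reticulum, 0.15 (SE 0.14), none with an unadjusted p under 0.05.

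The heat shock response list, which includes *Hsp90aa1* and *Dnajb1* themselves, had 16 of 17 genes measured and a median of -0.10. Its inducible Hsp70 genes varied between libraries and overlapped between groups. *Hspa1a*, an inducible Hsp70 that also stands on the dissociation list, was at 7.61, 8.76 and 7.34 log2 CPM in control and 7.53, 7.49 and 8.05 in Nr3c1-Foxp3Cre libraries, and its neighbour *Hspa1b* was at 8.14, 9.06 and 7.95 against 8.19, 8.13 and 8.54. Both were highest in control 2 and next in Nr3c1-Foxp3Cre 3, the same 2 libraries in which *Dnajb1* was highest. *Hspa1a* and *Hspa1b* are near-identical copies, and their reads may be split between them. They were named after their values were seen.

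The organelle chaperones were all measured. The mitochondrial *Hspa9* had a log2 difference of 0.23 (SE 0.14), *Hspa5* of the endoplasmic reticulum 0.15 (SE 0.14), the mitochondrial *Trap1* 0.14 (SE 0.14) and *Hsp90b1* of the endoplasmic reticulum -0.021 (SE 0.12), and all overlapped. The 12 genes of nuclear import and dynein transport, which carry the receptor to the nucleus, were all measured and had a median of -0.0082, with *Kpna4* (-0.13), *Dynll2* (-0.13) and *Ipo13* (0.086), an importin, leading by p. Of the steroid receptors and enzymes that set ligand supply, 5 of 10 had a value, and the drug transporters *Abcb1a* and *Abcb1b*, which can export glucocorticoids, had differences of -0.11 and -0.092. *Hsd11b1*, which regenerates active glucocorticoid, differed by 0.0026 on the log2 scale (SE 0.14), from 7.20 ± 0.090 in control to 7.21 ± 0.26 log2 CPM in Nr3c1-Foxp3Cre Tregs (SD, n = 3 each). No value was given for *Nr3c2*, *Pgr*, *Esr1*, *Esr2* and *Hsd11b2*.

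**Figure D4:**
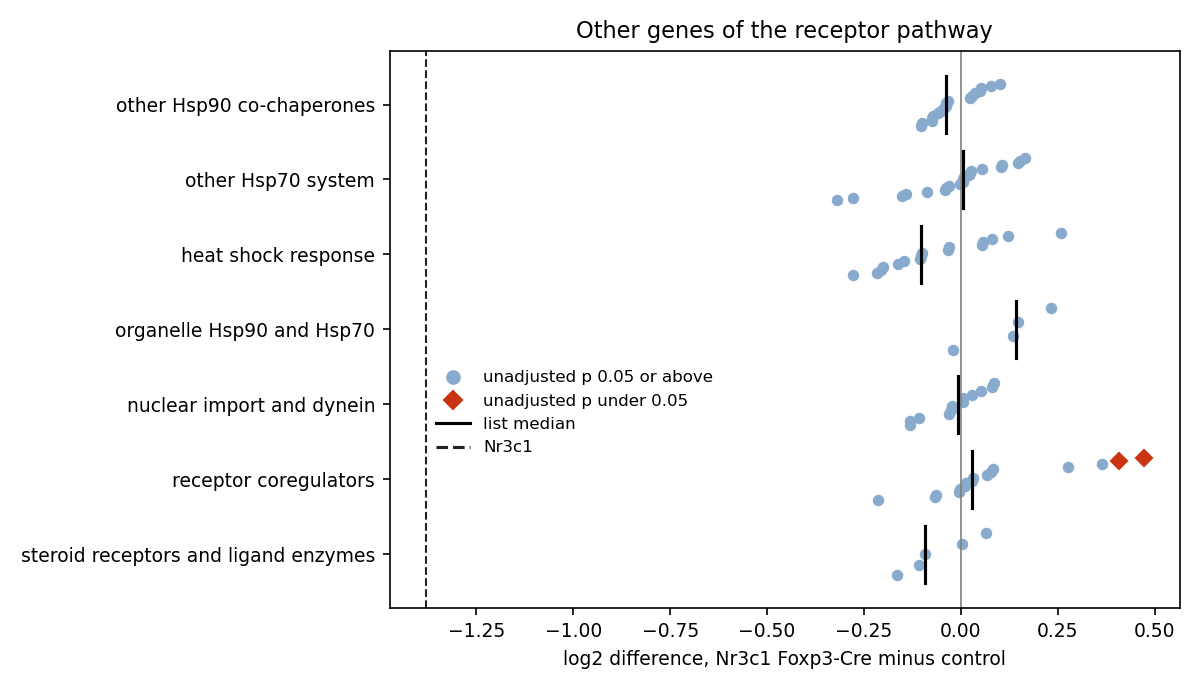
Difference between Nr3c1-Foxp3Cre and control Tregs (x axis, log2) for each measured gene of 7 pathway lists, with 1 point per gene and the median of each list as a line. The medians run from -0.10 for the heat shock response, which shares genes with other lists, to 0.14 for the organelle chaperones. The 2 diamonds, which mark an unadjusted limma p under 0.05, are *Smarca2* and *Nrip1*.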

How the data were processed

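Reads of 3 control and 3 Nr3c1-Foxp3Cre libraries (SMARTer Ultra Low Input and Nextera XT kits) were processed by the authors with Cutadapt, STAR on mm10, RSEM on GENCODE M21, removal of low genes and quantile normalization. The deposited values are log2 CPM and were used as given, with no pseudocount added here. Since counts were not used here, voom weights could not be computed and a mean-variance trend was used instead. Read depth is unknown, and precision is limited by having 3 libraries a group.

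A single limma model (version 3.58.1, R 4.3.3) was fitted to the 12153 genes (lmFit and eBayes with a trend, genotype as the term, Benjamini-Hochberg adjustment over all genes at 0.05), and the code was tested on simulated data. Single values were compared by exact two-sided permutation. Shared words of 50 bases were counted between the longest coding transcript of each gene and all other transcripts. Members and lists were chosen by known role, but with earlier results of these data known. All members, up to 3 genes per pathway list with the smallest p, the 5 nearest profiles and the highest genes of marker lists are named. A gene that this rule would name is not reported here, and genes at further places in those lists were named after their values were seen.

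Alternatives were vooma or sample quality weights, eBayes run robustly or with no trend, a floor at 0 or a minimum mean of 1, median centering, cyclic loess, omission of each library in turn and a block for the replicate number.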

Additional observations from a re-analysis of the deposited data

How the results depend on the processing

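The *Nr3c1* log2 difference lay between -1.54 and -1.19 when each library was left out and was -1.08 with sample quality weights, which gave control 3 a weight of 7.47. Its limma adjusted p was 0.0545 to 0.648 over the alternatives set out for it. Once the melanoma marker level was added to the fit, after the data had been seen, the difference was -1.37 (adjusted p = 0.00423). That made 1 of the 10 genes pass, in a fit with 4 higher and 15 lower past the threshold among all 12153 genes. The cause was not tested. Of 160 values of the 10 genes over all alternatives, 148 kept their direction and side of the threshold, and 11 turned. Those came from leaving out a library, which spanned -0.030 to 0.10 for *Hsp90ab1*, -0.086 to 0.10 for *Stip1*, -0.029 to 0.058 for *Bag1* and -0.22 to 0.17 for *Fkbp4*. The summed chaperone level differed by -0.016 to 0.17 without each library (-0.016 without control 3) and by -0.011 as a mean of log2 values. With sample quality weights 3 of the 10 genes had an unadjusted p under 0.05, the others being *Ptges3* (-0.20) and *Dnajb1* (0.31). Their limma adjusted p was 0.398 and 0.338. The share of all genes with an unadjusted p under 0.05 in that fit was not computed, so the count has no background beside it.

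Over all genes, the 1 higher and 6 lower became 0 and 0 without a trend, 7 and 12 with sample quality weights, 4 and 15 with the melanoma covariate and 196 and 200 at an unadjusted p, and vooma weights gave 2 higher. Leaving out libraries gave 0 to 3 higher and 0 to 5 lower, with 0 of each without control 3 or without Nr3c1-Foxp3Cre 2. In the fit with a replicate block, 0 genes were higher and 0 lower, 275 had an unadjusted p under 0.05, and the *Nr3c1* difference was -1.38 (adjusted p = 0.648). Deviations of same-numbered libraries correlated at -0.117, -0.329 and -0.0246, and no library correlated best with its own number. With 3 libraries a group, deviations within a group depend on each other. Whether the numbers pair the libraries therefore cannot be told from these values.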
